A study of Homo sapiens and Mus musculus with 24 samples.

Results

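A pair of clonal lines of Caco-2, a human colorectal adenocarcinoma line that takes on enterocyte features in culture, were set against each other: one carrying a deletion of DNMT3A together with reintroduced DNMT3A1, and one carrying the same deletion together with reintroduced DNMT3A2. The libraries were chosen by their genotype labels, which gave 3 DNMT3A1 libraries (replicates 1, 2 and 4, since replicate 3 was not analysed here) and 4 DNMT3A2 libraries, 7 of the 15 Caco-2 libraries with a count table and of the 23 libraries with one in the whole series. The libraries were stranded, made from total RNA and read as pairs of 75 bases. The other Caco-2 libraries were 4 of wild-type cells (WT) and 4 of the deleted parent line (ΔDNMT3A), whose levels are given for orientation. No drug or stimulus was named for these libraries. Each tagged isoform was put into ΔDNMT3A cells in a piggyBac vector with a CMV promoter and puromycin selection, and lines were grown from single cells by serial dilution. The comparison was therefore between 1 clone and 1 clone, so that isoform and clone cannot be told apart, and nothing in the labels says that the replicates were separate cultures, so that the p-values measure the spread between these libraries only.

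DNMT3A is a de novo DNA methyltransferase, an enzyme that adds methyl groups to cytosine in CG dinucleotides. DNMT3A1 is the full-length isoform, while DNMT3A2 starts from an internal promoter and lacks the N-terminal stretch of DNMT3A1. Methylated CG-rich promoters are as a rule silent, and differentiated enterocytes are known for brush border hydrolases, lipoprotein assembly and a low output of Wnt signalling. DNA methylation was not part of the data described here, and the counts were made per gene, so that reads of the edited locus, of DNMT3A1 and of DNMT3A2 all entered 1 value. The comparison asks which genes differ between cells given one isoform and cells given the other.

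The promoters of 8 genes that carry the largest differences or belong to gene pairs described below are shown first, because CG dinucleotides are the substrate of the enzyme. Each line gives the 250 bases before the start of the gene in RefSeq, 5′ to 3′ on the strand of the gene, in lower case with every CG in capitals. SI and FGA were higher in the DNMT3A1 line and hold few CG, PKIB was higher in the DNMT3A1 line, and PCDH7 and the collagen IV genes were higher in the DNMT3A2 line.
SI (GRCh38.p14, chr3:165078497-165078746, minus strand, 0 CG): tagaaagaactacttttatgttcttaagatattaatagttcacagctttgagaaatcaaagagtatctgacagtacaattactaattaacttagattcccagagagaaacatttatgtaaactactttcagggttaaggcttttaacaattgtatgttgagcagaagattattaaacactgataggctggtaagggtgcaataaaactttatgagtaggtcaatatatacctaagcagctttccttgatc
FGA (GRCh38.p14, chr4:154590743-154590992, minus strand, 2 CG): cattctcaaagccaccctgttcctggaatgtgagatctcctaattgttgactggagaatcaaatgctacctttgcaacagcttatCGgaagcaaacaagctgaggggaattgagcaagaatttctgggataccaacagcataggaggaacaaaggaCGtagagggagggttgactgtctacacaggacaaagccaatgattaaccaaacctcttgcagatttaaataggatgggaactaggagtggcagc
PKIB (GRCh38.p14, chr6:122471671-122471920, plus strand, 18 CG): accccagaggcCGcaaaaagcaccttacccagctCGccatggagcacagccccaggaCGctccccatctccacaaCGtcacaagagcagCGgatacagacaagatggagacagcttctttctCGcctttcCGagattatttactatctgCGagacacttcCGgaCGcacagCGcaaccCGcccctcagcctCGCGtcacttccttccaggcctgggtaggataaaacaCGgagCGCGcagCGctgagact
PCDH7 (GRCh38.p14, chr4:30720119-30720368, plus strand, 10 CG): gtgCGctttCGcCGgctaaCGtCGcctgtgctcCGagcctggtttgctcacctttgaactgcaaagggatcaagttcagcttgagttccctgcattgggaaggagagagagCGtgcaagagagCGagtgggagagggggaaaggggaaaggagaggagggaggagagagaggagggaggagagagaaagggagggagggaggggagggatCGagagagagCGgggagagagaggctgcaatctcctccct
COL4A5 (GRCh38.p14, chrX:108439588-108439837, plus strand, 8 CG): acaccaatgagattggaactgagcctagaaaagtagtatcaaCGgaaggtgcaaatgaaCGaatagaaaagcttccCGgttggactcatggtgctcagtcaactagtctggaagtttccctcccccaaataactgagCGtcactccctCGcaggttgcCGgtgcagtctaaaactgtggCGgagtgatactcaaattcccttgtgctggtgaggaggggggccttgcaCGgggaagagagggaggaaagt
COL4A6 (GRCh38.p14, chrX:108439459-108439708, minus strand, 7 CG): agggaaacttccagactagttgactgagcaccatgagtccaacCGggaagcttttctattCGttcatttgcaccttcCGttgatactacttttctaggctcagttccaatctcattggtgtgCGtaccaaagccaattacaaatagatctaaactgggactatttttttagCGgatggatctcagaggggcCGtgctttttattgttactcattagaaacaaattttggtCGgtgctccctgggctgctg
COL4A3 (GRCh38.p14, chr2:227164374-227164623, plus strand, 17 CG): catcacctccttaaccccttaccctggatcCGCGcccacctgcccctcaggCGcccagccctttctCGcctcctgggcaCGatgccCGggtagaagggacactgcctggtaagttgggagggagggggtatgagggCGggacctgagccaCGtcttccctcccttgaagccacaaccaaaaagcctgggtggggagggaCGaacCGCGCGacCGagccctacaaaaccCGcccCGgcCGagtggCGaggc
COL4A4 (GRCh38.p14, chr2:227164206-227164455, minus strand, 20 CG): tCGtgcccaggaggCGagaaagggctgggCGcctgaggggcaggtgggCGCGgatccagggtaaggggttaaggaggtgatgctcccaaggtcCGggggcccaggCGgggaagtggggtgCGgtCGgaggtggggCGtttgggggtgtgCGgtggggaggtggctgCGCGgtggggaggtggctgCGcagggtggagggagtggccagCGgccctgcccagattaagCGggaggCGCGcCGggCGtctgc
The windows of COL4A5 and COL4A6, which are transcribed away from each other, overlap by 121 bases, and those of COL4A3 and COL4A4 overlap by 82 bases. Over the 11473 tested genes with such a promoter in the table, the median was 21 CG, counted as the letters CG on 1 strand, and 1.07% held none.

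The targeted gene was examined first. DNMT3A (ENSG00000119772, chr2:25227855-25342590, minus strand, GRCh38) had 36.6, 39 and 38.3 counts per 1000000 (CPM, scaled by TMM) in the DNMT3A1 libraries, 20.1, 22.3, 23.5 and 21.7 CPM in the DNMT3A2 libraries, 19.3 to 22.3 CPM in ΔDNMT3A and 61.9 to 67.1 CPM in WT. Every DNMT3A1 library lay above every DNMT3A2 library, with a log2 fold change of 0.80 (SE 0.05, edgeR adjusted p = 3.40e-13, n = 3 and 4). Positive log2 fold changes mean higher in DNMT3A1 throughout. The DNMT3A2 libraries exceeded ΔDNMT3A by 1.20 CPM on average (exact two-sided permutation test, p = 0.2571), and their range overlapped that of ΔDNMT3A. The gene-level RNA count of the line labelled DNMT3A2 thus did not show the reintroduced isoform. At the protein level the paper reports both reintroduced isoforms, by immunoblot and by immunofluorescence in the nuclei. Both lines are called by their labels from here on. The DNMT3A1 libraries exceeded ΔDNMT3A by 17.3 CPM, with an exact permutation p of 0.0571, the smallest that 3 against 4 libraries can give.

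DNMT3A also sat at a step in the expression of its neighbours. The 50 tested genes that follow it on chromosome 2, from DTNB to RBKS (chr2:25377198-27988087), were all higher in the DNMT3A1 line, with a median log2 fold change of 1.19 and a range from 0.42 to 3.43. The 50 tested genes before it, from PDIA6 to POMC (chr2:10783391-25168903), had a median of -0.51, and 11 were higher in DNMT3A1, 30 higher in DNMT3A2 and 9 not past the threshold. The rest of chromosome 2 (1065 tested genes) had a median of 0.03, but the shift ran on beyond the 50 genes after DNMT3A. In windows of 100 tested genes, chr2:26308173-38785000, which holds part of those 50, had a median of 1.07. There 91 genes were higher in DNMT3A1 and 2 in DNMT3A2. The next window (chr2:38797729-63827843) had a median of 0.60, with 87 and 3 genes. The window after it (chr2:63840940-75189949) had a median of 0.06. All 92 tested genes before DNMT3A had a median of -0.51. The choice of 50 genes a side was made after the values were seen.

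The step was present in some lines and not in others. Over the 50 genes after DNMT3A the median difference from WT, on the log2(CPM + 0.5) scale, was 1.10 in ΔDNMT3A, 1.08 in DNMT3A1 and -0.04 in DNMT3A2. Over the 50 genes before it the medians were -0.45, -0.32 and 0.03 in the same order, while single WT libraries stayed between -0.03 and 0.01. The DNMT3A1 line and its parent ΔDNMT3A thus shared a step at the edited gene that the DNMT3A2 line did not carry, although both lines are labelled as derived from the deletion. HADHB, a subunit of the mitochondrial trifunctional protein, had 307, 295 and 317 CPM in DNMT3A1, 137, 134, 131 and 137 CPM in DNMT3A2, and means of 326 CPM in ΔDNMT3A and 145 CPM in WT. ADCY3, an adenylyl cyclase gene on the other side, had 40.9, 41 and 36.1 CPM in DNMT3A1 and 62.7 to 66.5 CPM in DNMT3A2, with means of 46.9 CPM in ΔDNMT3A and 70.0 CPM in WT. When the shift shared by neighbouring genes (a running median over 51 tested genes) was taken out of each library, the log2 fold change of DNMT3A itself was -0.05 (edgeR adjusted p = 0.454). At DNMT3A this running median takes in genes from both sides of the step. The value of -0.05 therefore cannot separate DNMT3A from its neighbours. DNA copy number was not measured, and its part in these values was not tested.

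Across all genes the lines differed widely, with little spread between replicates. Of 16637 genes tested, 11392 (68.5%) passed an adjusted p of 0.05 in edgeR, 5744 (34.5%) higher in DNMT3A1 and 5648 (33.9%) higher in DNMT3A2. The shares of 34.5% and 33.9% are the background for every count of a gene group below. The median absolute log2 fold change of these genes was 0.47 and the biological coefficient of variation 3.39%, so that small differences passed. A log2 fold change of at least 1 was reached by 2187 genes (13.1%), 1525 of them higher in DNMT3A1 and 662 higher in DNMT3A2. With the shift of neighbouring genes removed, 5124 genes (30.8%) were higher in DNMT3A1 and 5106 (30.7%) in DNMT3A2, and of the 11392 calls 8560 kept their direction and 1204 turned to the other. Library totals ran from 22104408 to 35336962 counts. The groups did not overlap for 66.7% of the tested genes. Read lanes split the libraries as well (replicates 1 and 2 in one, 3 and 4 in another), and within the lanes 10139 and 9921 genes passed.

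The 2 lines lay outside the range of the other Caco-2 libraries for similar numbers of genes. Over all 16637 tested genes the share was 38.1% for DNMT3A1 and 38.9% for DNMT3A2. Of the 11392 genes, all DNMT3A1 libraries lay above or below all 8 WT and ΔDNMT3A libraries for 5294, and all DNMT3A2 libraries did for 5481. Among the 2187 genes with a log2 fold change of at least 1, DNMT3A1 lay above all 8 for 796 and below for 290, whereas DNMT3A2 lay above for 396 and below for 748.

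On some chromosomes most genes differed in 1 direction. On chromosome 14, 431 of 565 tested genes were higher in DNMT3A1 and 42 in DNMT3A2, with a median log2 fold change of 0.54. The median difference from WT there was 0.49 in DNMT3A1, 0.09 in ΔDNMT3A and -0.03 in DNMT3A2. On chromosome 5, 473 of 758 tested genes were higher in DNMT3A2 and 95 in DNMT3A1, with a median of -0.39. There DNMT3A2 lay 0.26 above WT and DNMT3A1 0.118 below. Medians of 0.42, 0.32 and 0.27 were found on chromosomes 22, 12 and 11, and of -0.39 and -0.35 on chromosomes 15 and 13. At the end of the X chromosome (chrX:134887626-153798505), a window of 50 tested genes had a median of 0.88, with DNMT3A2 0.746 below WT and DNMT3A1 at 0.01. Of 323 windows of 50 tested genes, 77 (23.8%) had a median of at least 0.3 in either direction.

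Most of the single genes with the largest fold changes were close to silent in one line. TRIM49C, a member of the TRIM family, had 2.56, 2.56 and 1.89 CPM in DNMT3A1 and no count in any DNMT3A2 library, at least 81.4-fold higher against 3 counts over the group. PKIB (chr6:122471917-122726373), an inhibitor of protein kinase A whose promoter with 18 CG is printed above, had 32.7, 33.1 and 37.7 CPM in DNMT3A1 and 0.434 to 0.583 CPM in DNMT3A2 (log2 fold change 6.05, SE 0.11, edgeR adjusted p = 1.84e-24). ΔDNMT3A had a mean of 28.5 CPM and WT of 0.738 CPM, so that DNMT3A2 lay at the WT level of PKIB and DNMT3A1 near that of ΔDNMT3A. The other order was seen for FBXO25, a subunit of a ubiquitin ligase, with 22.6, 19.6 and 19.2 CPM in DNMT3A1, 0.474 to 0.646 CPM in DNMT3A2, 17.7 CPM in ΔDNMT3A and 23.1 CPM in WT. SMC1B, a cohesin subunit of meiotic cells, followed FBXO25 with 8.64 to 9.19 CPM in DNMT3A1, 0.0708 to 0.231 CPM in DNMT3A2 and a WT mean of 5.68 CPM. For these genes only the DNMT3A2 libraries were low. TNFSF10, which encodes the death ligand TRAIL, had 6.27, 4.48 and 15.6 CPM in DNMT3A1 and 0.354 to 0.507 CPM in DNMT3A2 (log2 fold change 4.41, SE 0.39), and its 3 DNMT3A1 libraries were spread widely. ADAM23, a membrane protein of the ADAM family, reached 94.3, 94.5 and 87.0 CPM in DNMT3A1 against 3.99 to 4.64 CPM in DNMT3A2. L3MBTL1, a chromatin reader of the malignant brain tumour family, had 4.00 to 5.55 CPM and 0.0354 to 0.369 CPM in the same order. The remaining genes of this rank were SIGLEC6 (ratio of counts 51.4, 95% counting interval 21.7 to 159.8), CDH11, ZNF790, CNTLN and DOCK11, with log2 fold changes from 4.40 to 4.82 for those 4. The pseudogene FRG1CP had 6.63, 6.85 and 7.49 CPM in DNMT3A1 and 3 counts in all DNMT3A2 libraries together (ratio 248.5, counting interval 84.7 to 1208), and its near copies make the assignment of reads uncertain.

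PCDH7 (chr4:30720415-31146805), a protocadherin of cell adhesion, led the genes higher in the DNMT3A2 line. It had 25.4, 26.6, 26.4 and 30.1 CPM in DNMT3A2 and 0.0328, 0.0765 and 0.0845 CPM in DNMT3A1, 6 counts in all (ratio 419, counting interval 192 to 1143). WT had 7.97 CPM and ΔDNMT3A 2.19 CPM, so that DNMT3A2 lay above both and DNMT3A1 below both. HAS2, a hyaluronan synthase, had 7.54 to 9.48 CPM in DNMT3A2, 0.164 to 0.344 CPM in DNMT3A1 and a WT mean of 1.18 CPM. CLDN6, a claudin of embryonic epithelia, was far lower in every edited line than in WT (37.2 CPM), with 2.33 to 2.54 CPM in DNMT3A2 and at most 0.141 CPM in DNMT3A1. TRIB2 (ratio 67.0, counting interval 25.9 to 248), DIRAS2 (87.2, 23.8 to 725), RFX6 (35.6, 15 to 110.7) and INPP4B (28.6, 12.9 to 79.0) rested on 2 to 6 counts in all DNMT3A1 libraries together, and KCNJ16 had a log2 fold change of -5.43 (SE 0.23).

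**Figure D1:**
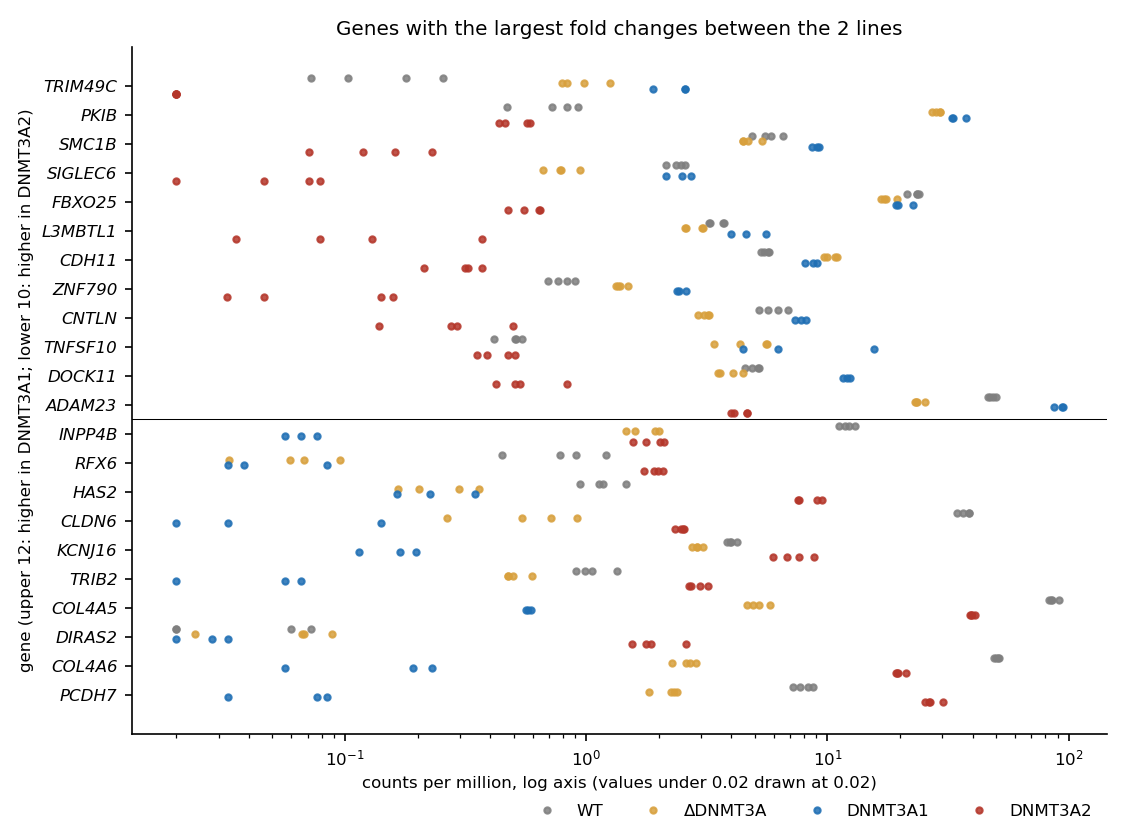
CPM of every library (x axis, log scale, values under 0.02 drawn at 0.02) for the 12 protein-coding genes with the highest log2 fold changes and 10 of the 12 with the lowest (y axis), coloured by line. The genes were chosen among those whose DNMT3A1 and DNMT3A2 libraries do not overlap. For PKIB the DNMT3A2 libraries lie with WT, and for FBXO25 they lie far below WT.

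Every chain of collagen IV, the network-forming collagen of basement membranes, was higher in the DNMT3A2 line. COL4A5 (chrX:108439844-108697545) had 39.3, 39.2, 40.9 and 39.7 CPM in DNMT3A2, 0.591, 0.574 and 0.563 CPM in DNMT3A1, 5.13 CPM in ΔDNMT3A and 85.9 CPM in WT (log2 fold change -6.10, SE 0.09, edgeR adjusted p = 5.34e-26). Its neighbour COL4A6 had 19.2 to 21.2 CPM in DNMT3A2 and 0.0563 to 0.230 CPM in DNMT3A1, with 50.3 CPM in WT. Both genes of the pair thus stood highest in WT, next in DNMT3A2 and lowest in DNMT3A1. In the chromosome 2 pair the DNMT3A2 line stood above WT. COL4A4 had 3.00 to 3.76 CPM in DNMT3A2, 0.306 to 0.450 CPM in DNMT3A1 and 0.795 CPM in WT. COL4A3 had 0.553 to 0.920 CPM in DNMT3A2, 0.102 CPM in WT and counts in 1 of the 3 DNMT3A1 libraries. COL4A1 and COL4A2, a pair on chromosome 13, had log2 fold changes of -1.04 and -1.05 (SE 0.06 each). COL4A1, COL4A2 and COL4A3 were chosen after their values were seen. Over all 36 tested genes for collagens, laminins and matrix glycoproteins the directions were divided, 19 higher in DNMT3A1 and 16 in DNMT3A2.

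Brush border genes were mostly higher in the DNMT3A1 line. Of 20 listed disaccharidases and peptidases 15 were tested, and 12 were higher in DNMT3A1, 2 higher in DNMT3A2 and 1 not past the threshold, with a median log2 fold change of 1.59 against 0.00 over all genes. SI (ENSG00000090402, chr3:164978898-165078495), the sucrase-isomaltase of the small intestine, had 52.8, 48.7 and 65.1 CPM in DNMT3A1, 2.69, 3.18, 2.87 and 2.59 CPM in DNMT3A2, 13.4 CPM in ΔDNMT3A and 16.4 CPM in WT (log2 fold change 4.31, SE 0.10, edgeR adjusted p = 1.75e-22). WT and ΔDNMT3A lay between the 2 lines. MEP1A, a subunit of the metalloprotease meprin, had 229 to 250 CPM in DNMT3A1 and 30.9 to 35.1 CPM in DNMT3A2, the latter near the 24.4 CPM of WT. DPP4, a dipeptidyl peptidase of the brush border, had 1335, 1316 and 1319 CPM against 420 to 458 CPM. LCT, the lactase, went the same way between the lines, 4.46 to 6.39 CPM against 0.507 to 1.03 CPM, but both lay below the 9.60 CPM of WT. Of 12 tested genes of the microvillus scaffold 9 were higher in DNMT3A1 and 2 in DNMT3A2, among them MYO1A, the brush border myosin, with 37.6 to 42.2 CPM against 4.94 to 5.31 CPM. CDHR5, a cadherin that links microvilli, was at 43 to 50.4 CPM in DNMT3A1 and 43.2 CPM in WT, and at 6.13 to 7.90 CPM in DNMT3A2. VIL1, the bundling protein villin, differed little (log2 fold change 0.17, SE 0.03).

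Transport, mucus and drug metabolism genes moved partly with the brush border. Of 10 tested mucin and goblet genes out of 25 listed, 9 were higher in DNMT3A1 and none in DNMT3A2. REG4, a secreted lectin, had 27.6 to 31.4 CPM in DNMT3A1, 1.66 to 2.49 CPM in DNMT3A2 and 2.05 CPM in WT. Of 27 tested CYP, UGT, GST, SULT and efflux genes 17 were higher in DNMT3A1 and 4 in DNMT3A2. UGT2A3, a glucuronosyltransferase, had 161, 147 and 172 CPM against 7.61 to 8.52 CPM (log2 fold change 4.33, SE 0.06). Both subunits of the cystine transporter were higher in DNMT3A1. SLC3A1 had 104 to 112 CPM in DNMT3A1, 6.87 to 8.23 CPM in DNMT3A2, 136 CPM in ΔDNMT3A and 6.59 CPM in WT, and SLC7A9 had a log2 fold change of 2.07 (SE 0.11). CFTR, the chloride channel, had 300 to 309 CPM against 98.2 to 105 CPM. Sugar transporters were divided 4 to 4, and the organic ion carriers SLC22A3 and SLCO4A1 were higher in DNMT3A2 (log2 fold changes -1.95 and -1.97, SE 0.07 each). Of 10 tested apolipoprotein genes 6 were higher in DNMT3A1 and 1 in DNMT3A2, among them APOA1, the main protein of HDL, at 523 to 662 CPM against 123 to 141 CPM.

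Genes for proteins that the liver secretes were also higher in the DNMT3A1 line, with exceptions. Of 21 tested, 12 were higher in DNMT3A1 and 5 in DNMT3A2. FGG and FGA, 2 chains of fibrinogen encoded side by side on chromosome 4, had 494 to 604 and 448 to 563 CPM in DNMT3A1, against 53.1 to 55.9 and 51.4 to 59.8 CPM in DNMT3A2, with WT at 224 and 259 CPM. SERPINA1, the gene of alpha-1-antitrypsin, lay at 516 to 547 CPM against 136 to 153 CPM. ORM1 and ORM2, the orosomucoids, went the other way (log2 fold changes -1.08 and -1.28), and their near-identical sequences make the division of reads between them uncertain. Of 22 tested complement and coagulation genes 14 were higher in DNMT3A1 and 2 in DNMT3A2 (13 and 1 with the shift of neighbouring genes removed). C5 had 62.1 to 68.6 CPM in DNMT3A1 against 10.03 to 12 CPM in DNMT3A2 and 9.67 CPM in WT.

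Interferon-stimulated genes and MHC class I genes were mostly higher in DNMT3A1. Of 43 listed interferon-stimulated genes 31 were tested, and 23 were higher in DNMT3A1, 4 higher in DNMT3A2 and 4 not past the threshold (median log2 fold change 0.81). HERC5, the ligase that attaches ISG15, had 13.7, 13.6 and 13.4 CPM in DNMT3A1, 0.553 to 1.10 CPM in DNMT3A2, 9.32 CPM in ΔDNMT3A and 2.21 CPM in WT. ISG15 itself was higher in DNMT3A2, at 7.94 to 8.58 CPM against 5.05 to 5.80 CPM, and both lines lay below the 22.1 CPM of WT. Of 16 tested class I genes 12 were higher in DNMT3A1 and 2 in DNMT3A2 (14 and 0 with the shift of neighbouring genes removed). TAP1, a subunit of the peptide transporter, had 2.70 to 2.95 CPM against 0.395 to 1.01 CPM, and both were below the WT mean of 4.59 CPM. B2M, the light chain, was at 126 to 138 CPM in DNMT3A1 and 148 to 158 CPM in DNMT3A2 (log2 fold change -0.22), and its direction turned to 0.28 with the shift of neighbouring genes removed.

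**Figure D2:**
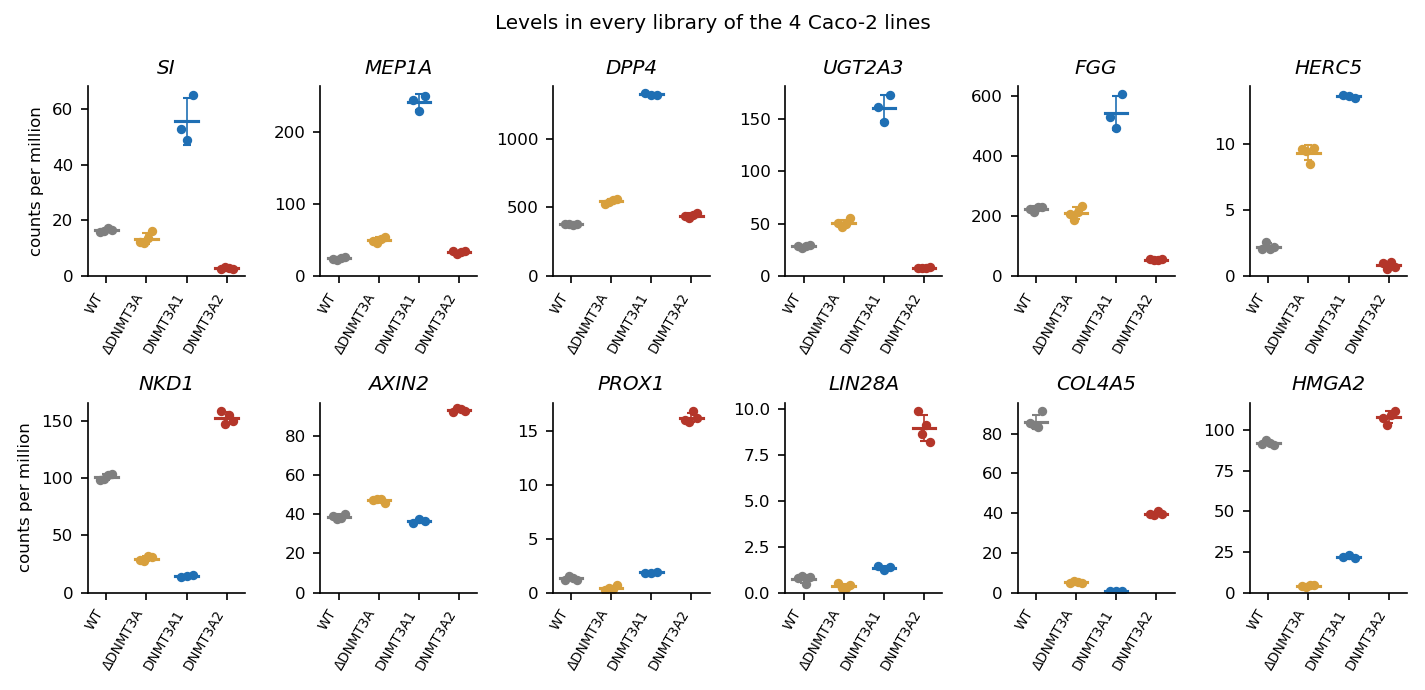
CPM of every library (y axis, linear, from 0) in the 4 Caco-2 lines (x axis) for 6 genes higher in DNMT3A1 (upper row) and 6 higher in DNMT3A2 (lower row). Points are libraries, horizontal bars are means and error bars are SD (n = 3 for DNMT3A1, 4 for the others). SI and FGG stand highest in DNMT3A1 and lowest in DNMT3A2, with WT between.

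Wnt target genes were mostly higher in the DNMT3A2 line. Of 17 tested, 12 were higher in DNMT3A2, 3 higher in DNMT3A1 and 2 not past the threshold, with a median log2 fold change of -0.66. With the shift of neighbouring genes removed 13 were higher in DNMT3A2 and 1 in DNMT3A1. NKD1, a feedback inhibitor of the pathway, had 159, 148, 156 and 150 CPM in DNMT3A2, 13.2, 14.7 and 15.7 CPM in DNMT3A1, 29.7 CPM in ΔDNMT3A and 101 CPM in WT (log2 fold change -3.39, SE 0.05, edgeR adjusted p = 9.10e-27). AXIN2, another feedback inhibitor, had 92.4 to 94.3 CPM in DNMT3A2 against 35.6 to 37.7 CPM in DNMT3A1, the latter near the WT mean of 38.7 CPM. For NKD1 the DNMT3A1 line lay far from WT, and for AXIN2 the DNMT3A2 line did. PROX1, a homeobox factor, had 15.8 to 16.8 CPM against 1.84 to 1.91 CPM. CCND1, the gene of cyclin D1, had 467 to 472 CPM against 229 to 242 CPM. EPHB3, a receptor for ephrins, was the exception of largest size (log2 fold change 0.96, and 0.25 with the shift of neighbouring genes removed). Among ligands and modulators the directions were divided, 9 of 25 tested higher in DNMT3A1 and 7 in DNMT3A2 (median log2 fold change 0.08). The members named next all belong to the 7. WNT5A and WNT6, a pair of ligands, had 55.1 to 58.5 and 3.5 to 4.38 CPM in DNMT3A2 against 13.9 to 16.6 and 0.253 to 0.295 CPM in DNMT3A1. DKK1, a secreted antagonist, was higher in DNMT3A2 as well, at 1261 to 1303 CPM against 592 to 629 CPM.

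Notch and oncofetal genes were more often higher in the DNMT3A2 line, and HOX clusters were divided. Of 17 tested Notch genes 10 were higher in DNMT3A2 and 4 in DNMT3A1, beside 33.9% and 34.5% of all tested genes. The ligand DLL1 had 11.1 to 11.7 CPM in DNMT3A2 against 1.88 to 3.05 CPM in DNMT3A1, while the ligand JAG1 had 90.1 to 97.4 CPM against 167 to 190 CPM. HES1, a target gene of the pathway, was higher in DNMT3A1 (log2 fold change 0.54, SE 0.04). Its neighbours on chromosome 3 were shifted the same way. Of 100 tested genes in chr3:184135038-196568674, 57 were higher in DNMT3A1 and 17 in DNMT3A2 (median 0.45). The value of HES1 alone does not set it apart from these neighbours. Of 18 tested stem cell and oncofetal genes 9 were higher in DNMT3A2 and 4 in DNMT3A1. LIN28A, an RNA-binding protein of embryonic cells, had 8.23 to 9.87 CPM against 1.22 to 1.44 CPM, and both lines were above the WT mean of 0.745 CPM. HMGA2, a chromatin protein of embryonic tissue, had 103 to 112 CPM in DNMT3A2, 21.1 to 23.2 CPM in DNMT3A1, 4.17 CPM in ΔDNMT3A and 92.1 CPM in WT. IGF2BP3, an RNA-binding protein of the same group, was higher in DNMT3A1 (log2 fold change 0.87). KRT23, a keratin, had 36.5 to 39 CPM in DNMT3A2, 2.51 to 2.92 CPM in DNMT3A1 and 1.09 CPM in WT. Of 8 tested HOXB genes 6 were higher in DNMT3A2 and 1 in DNMT3A1 (6 and 2 with the shift of neighbouring genes removed). Of 9 tested HOXC genes 6 were higher in DNMT3A1 and 2 in DNMT3A2 (3 and 3 with the shift removed), of 4 tested HOXD genes 3 were higher in DNMT3A1 and none in DNMT3A2 (2 and 0), and of 11 tested HOXA genes 1 was higher in DNMT3A1 and 5 in DNMT3A2 (1 and 3). All 10 tested protocadherin gamma genes were higher in DNMT3A2 (median log2 fold change -1.64), and 8 were with the shift of neighbouring genes removed. The protocadherin gamma genes share their last exons, so that their counts are uncertain gene by gene.

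Antioxidant, cell cycle and ribosomal protein genes were also weighted to DNMT3A2. Of 20 NRF2 target genes 14 were higher in DNMT3A2 and 4 in DNMT3A1 (17 and 1 with the shift of neighbouring genes removed). AKR1C1, AKR1C2 and AKR1C3, near-identical aldo-keto reductases among which reads may be split, had log2 fold changes of -2.24, -1.42 and -1.17. They lie together on chromosome 10, in a window of 100 tested genes (chr10:134465-27242130) with a median of -0.56. In that window 76 genes were higher in DNMT3A2 and 12 in DNMT3A1. AKR1B10, a related reductase, was higher in DNMT3A1 (1.32). Of 29 genes of G1 and S phase 7 were higher in DNMT3A1 and 15 in DNMT3A2 (4 and 19 with the shift removed). Of 22 genes of G2 and M phase none was higher in DNMT3A1 and 17 were higher in DNMT3A2. With the shift of neighbouring genes removed these were 2 and 9. CCNB1, the gene of cyclin B1 on chromosome 5, had 456 to 482 CPM in DNMT3A2 against 302 to 324 CPM, and its log2 fold change of -0.57 became -0.03 with that shift removed. Of 82 tested ribosomal protein genes 66 were higher in DNMT3A2 and 8 in DNMT3A1 (72 and 0 with the shift removed). They took 7.66 to 7.75% of the counts in DNMT3A2 libraries and 6.69 to 6.87% in DNMT3A1 libraries (exact permutation test, p = 0.0571, the smallest possible). Tight junction scaffolds had 9 of 19 tested genes higher in DNMT3A2 and 6 in DNMT3A1, which turned to 4 and 10 with the shift removed. TJP1, the gene of the scaffold ZO-1, was at 318 to 326 CPM in DNMT3A2 and 207 to 223 CPM in DNMT3A1. Its surroundings on chromosome 15 were shifted the same way. Of 100 tested genes in chr15:20379495-40326715, 65 were higher in DNMT3A2 and 9 in DNMT3A1 (median -0.47). The TJP1 levels alone do not set the gene apart from these neighbours. Claudins were divided 6 to 4, with CLDN1 higher in DNMT3A1 (log2 fold change 1.30) and CLDN23 in DNMT3A2 (-1.06).

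**Figure D3:**
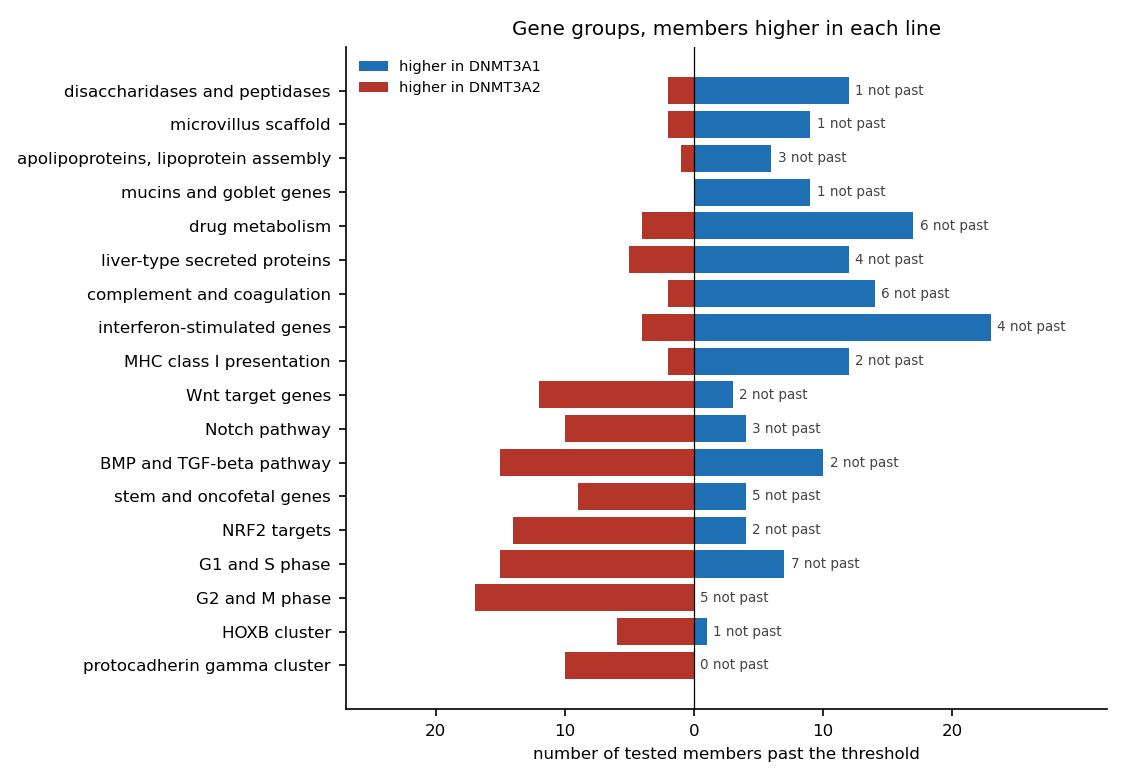
Number of tested members of each gene group (y axis) past the threshold, higher in DNMT3A1 to the right and higher in DNMT3A2 to the left (x axis), with the number not past it beside the bar. Brush border, secretory, liver-type and interferon groups extend to the right, and Wnt, Notch, NRF2 and cell cycle groups to the left.

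Other enzymes of DNA methylation differed in both directions. DNMT3B, the other de novo enzyme, had 113, 116 and 120 CPM in DNMT3A1 and 135 to 141 CPM in DNMT3A2 (log2 fold change -0.24, SE 0.03), and DNMT1, the maintenance enzyme, had 111 to 124 CPM against 147 to 151 CPM. UHRF1, which recruits DNMT1, was lower in DNMT3A1 by a small amount (log2 fold change -0.11, SE 0.03). DNMT3L, a catalytically inactive cofactor, was higher in DNMT3A1 at a low level (0.985 to 1.66 CPM against 0.513 to 0.876 CPM, log2 fold change 1.08, SE 0.25). TET1, TET2 and TET3, which oxidise methylcytosine, had log2 fold changes of 0.04, 0.23 and -0.71, and that of TET1 did not pass the threshold (edgeR adjusted p = 0.429).

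Promoters of the genes with large differences held fewer CG than promoters at large, in both directions. At least 10 CG within the 250 bases were found for 82.5% of all tested genes with a promoter, 62.9% of those with a log2 fold change of 1 or more and 61.1% of those with one of -1 or less. Among genes past the threshold, whatever the size, the share was 78.7% for those higher in DNMT3A1 and 86.9% for those higher in DNMT3A2. The printed examples span this range, from 0 CG before SI and 2 before FGA to 18 before PKIB and 20 before COL4A4.

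Both lines had the markers of an epithelium. All 11 epithelial markers were tested, and their summed level was 11137 to 11429 CPM in DNMT3A1 and 9016 to 9307 CPM in DNMT3A2. Of 8 leukocyte markers 3 were tested (summed level 20.3 to 22.6 against 17.9 to 18.6 CPM), and PTPRC had at most 1 count in a library. None of the 4 neural and 4 erythroid markers passed the filter on low counts. Of 5 endothelial markers 2 were tested (10.4 to 10.8 against 3.23 to 4.10 CPM) and of 8 fibroblast markers 4 (170 to 185 against 187 to 209 CPM), and their part in the differences was not tested. Genes with at least 1 count numbered 25636 to 26350 in DNMT3A1 and 24330 to 25458 in DNMT3A2 libraries (exact permutation p = 0.0571). For the histone share of counts the exact permutation p was 0.2857, and for total counts it was 0.3429.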

How the data were processed

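RNA of Caco-2 lines was sequenced by the authors, who trimmed reads with Trim Galore 0.4.4, aligned them to GRCh38 with STAR 2.5.2b and counted them per gene with featureCounts 1.5.2 using strand (setting 2 in the file headers). The deposited values used here are these raw counts of 58051 gene identifiers per library; no other column was used. Symbols came from GENCODE 44 (98.1% of identifiers matched) and promoters from RefSeq GRCh38.p14. Totals were 22104408 to 35336962 counts over the 7 libraries, and counting intervals (95%, exact) and floors of 3 counts cover counting error only. Genes passing filterByExpr were fitted by the quasi-likelihood test of edgeR 4.0.16 (R 4.3.3) with TMM factors, group as the only term and Benjamini-Hochberg adjustment at 0.05. Levels are CPM on TMM library sizes over all 15 Caco-2 libraries. WT and ΔDNMT3A libraries are the same in every such value. Library shares and the level of DNMT3A were compared by exact two-sided permutation tests (scipy 1.17.1), which for 3 against 4 libraries over 35 assignments cannot go below 0.0571. The fit was tested on simulated data.

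Alternatives were RLE size factors, DESeq2 1.42.0, no filter or a mean of at least 1 CPM, all 4 lines in 1 fit, the replicate number or the lane as a term, each lane alone, length and GC trends removed, protein-coding genes only and each library left out. Removal of the shift of neighbouring genes, the 50 genes on each side of DNMT3A and the comparison of DNMT3A with ΔDNMT3A were added after the data were seen. Named genes were the 12 highest and 12 lowest log2 fold changes of protein-coding genes that passed, did not overlap and averaged at least 1 CPM, genes near 0 in 1 line and at 5 CPM or more in the other, the methylation enzymes and the extreme or highest members of each gene list; some of these are not reported here. The members, lists and tests were chosen with earlier results of these data known.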

Additional observations from a re-analysis of the deposited data

Results flagged for a closer look

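Of 94 named genes examined, the 5 below had 1 DNMT3A2 library far from the other 3 by Dixon's ratio of gap to range. Chance meets this criterion in about 1 of 20 groups, a share close to that found. APOA1 was highest in replicate 4 at 141.4 CPM (the others 123 to 125 CPM) and AKR1C2 in replicate 4 at 152.1 CPM (148 CPM in the others). TAP1 was highest in replicate 2 at 1.01 CPM (0.395 to 0.486 CPM) and CCND1 in replicate 3 at 472.4 CPM (467 CPM). TET1 was lowest in replicate 2 at 41.4 CPM (43.6 to 43.9 CPM). Apart from TET1, which did not pass the threshold, every DNMT3A1 library lay outside the range of the DNMT3A2 libraries for these genes.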

How the results depend on the processing

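The number of genes past the threshold ranged from 9899 (protein-coding genes only) to 11839 (no filter on low counts) over the alternatives, and was 10387 with DESeq2 and from 10903 to 11179 when 1 library was left out. The split of genes higher in DNMT3A1 and in DNMT3A2, 5744 to 5648, became 4875 to 6858 with the length trend removed and 4821 to 6839 with the GC trend removed. With a mean of at least 1 CPM required, 1377 genes in place of 2187 differed by 1 or more on the log2 scale (fewer genes were tested). The share of promoters with at least 10 CG was then 66.9% and 68.6% for genes higher in DNMT3A1 and DNMT3A2 by that size. Over all genes with a promoter under that filter it was 85.1%. When the shift of neighbouring genes was removed, the log2 fold change of DNMT3A turned to -0.046 and that of B2M to 0.28, while CCNB1 and KRT8 were no longer past the threshold. For DNMT3A the running median lay across the step on chromosome 2, so that its value cannot separate the gene from its neighbours. TET1, not past the threshold, turned to -0.023 and -0.011 with length and GC trends removed and reached 0.31 with the neighbouring shift removed. Within 1 lane UHRF1 (lane 5) and TET2 (lane 6) were not past the threshold, and lane 6 holds 1 DNMT3A1 library, assumed to vary like the DNMT3A2 libraries. The cause of these changes was not tested.

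Replicate numbers gave at most a weak pairing of the libraries. Deviations of same-numbered libraries correlated at 0.02, 0.02 and 0.06, and those of other pairs at -0.07 to 0.04. The same-numbered library was the best match for DNMT3A1 replicates 1 and 4, while DNMT3A1 replicate 2 correlated best with DNMT3A2 replicate 3. With the replicate number as a block 11207 genes passed, 10959 of them with the call of the fit without it. Genes near 0 in 1 line are limited by depth, since their ratios rest on at most 6 counts over the group.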

Other observations

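In protein kinase A signalling 17 inhibitors, subunits, anchors and cyclases were tested, PKIB included. Of these 9 were higher in DNMT3A2 and 4 in DNMT3A1, beside 33.9% and 34.5% of all genes. PRKACB, a catalytic subunit of the kinase, had 8.89 to 11.04 CPM in DNMT3A2, 0.727 to 1.64 CPM in DNMT3A1 and 0.897 CPM in WT. PDE4D, a phosphodiesterase that degrades cyclic AMP, had 254 to 259 CPM in DNMT3A2 against 58.0 to 65.3 CPM in DNMT3A1, and WT lay between at 99.4 CPM.

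Of 25 tested imprinted genes 14 were higher in DNMT3A2 and 10 in DNMT3A1, beside 33.9% and 34.5% of all tested genes. CDKN1C, an inhibitor of cyclin-dependent kinases, had 25.7 to 28.6 CPM in DNMT3A2 against 7.08 to 8.28 CPM in DNMT3A1, with 24.7 CPM in WT. IGF2, a growth factor of the same imprinted region, had 433 to 505 CPM against 239 to 271 CPM. ZDBF2 went the other way, at 13.6 to 14.7 CPM in DNMT3A1, 1.98 to 2.63 CPM in DNMT3A2 and 16.6 CPM in WT. Of 28 SREBP targets and regulators of cholesterol synthesis 17 were higher in DNMT3A1 and 5 in DNMT3A2 (20 and 3 with the shift of neighbouring genes removed). Of 13 mitochondrially encoded genes 7 were higher in DNMT3A1 and 1 in DNMT3A2. The mitochondrial share of counts overlapped between the lines, at 0.537 to 0.592% in DNMT3A1 and 0.457 to 0.544% in DNMT3A2 (exact permutation test, p = 0.1143). KRT8, a keratin of simple epithelia, was higher in DNMT3A1 (log2 fold change 0.33, and 0.02 with the shift of neighbouring genes removed), and VIM, the intermediate filament vimentin, was higher in DNMT3A2 (-2.13).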
